A study of Saccharomyces pastorianus with 12 samples.

Results

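The comparison covered 3 of the 12 samples in a time course of production-scale lager fermentation, namely the samples labelled 24, 48 and 72 h, and set days 2 and 3 of the fermentation against day 1. The samples were chosen by their labelled times, with 1 array each. All 12 samples were total RNA of the same lager brewing yeast, Saccharomyces pastorianus, a hybrid with an S. cerevisiae parent, taken between 0 and 264 h. The labels name no strain, wort, temperature or treatment that differs between samples, and the arrays may all come from 1 fermentation. Levels were compared for 5490 named genes of 6051 rows (the other 561 rows were probes with no gene symbol). No difference below has a replicate check and no test was run, because each time had a single array, and both later arrays were set against the same 24 h array, so an error of that array enters both differences.

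In a brewery fermentation, yeast pitched into wort first uses the dissolved oxygen to make sterols and unsaturated fatty acids, and then grows and ferments without oxygen. Growing yeast spends much of its transcription on ribosomes, and ribosomal protein and histone genes are known to be transcribed in proportion to growth and to DNA replication. As sugars and amino nitrogen run down, genes held off by glucose or by rich nitrogen can be released. These statements are background. The arrays carried probes for S. cerevisiae genes, and transcripts of the second parental genome could not be separated from them.

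A level below is the log2 distance of a gene from the median gene of its own array, so it is relative to the other RNA on that array and says nothing of the RNA per cell or the number of cells, and a difference is the level at 48 or 72 h minus the level at 24 h, in log2 units. The arrays differed in brightness, with median intensities of 8797.5 units at 24 h, 4646 at 48 h and 7714.5 at 72 h. Before centring, the median over named genes of each gene's difference from 24 h was -0.94 at 48 h and -0.31 at 72 h. They also differed in spread. The standard deviation of levels over named genes was 1.47 on day 1, 1.22 on day 2 and 0.98 on day 3. A narrower array brings bright genes down and dim genes up towards its median, and quantile normalization, which gives every array the same distribution, was therefore run beside median centring for each result. After it the standard deviations were 1.06, 1.06 and 1.06. Spearman correlations across genes were 0.725 between 24 and 48 h, 0.700 between 24 and 72 h and 0.705 between 48 and 72 h.

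Across all named genes, 1949 lay above their 24 h level at both later times (35.5%) and 2247 below it (40.9%), while 1294 lay on opposite sides at the later times. Counted as called where both differences reached 2-fold in the same direction, 345 genes were higher (6.28%) and 318 lower (5.79%). After quantile normalization 132 were higher (2.40%) and 65 lower (1.18%), with 1898 above 24 h by any size (34.6%) and 1954 below (35.6%). Higher calls were 52.0% of all calls after centring and 67.0% after quantile normalization. Both normalizations called 113 genes higher and 55 lower. The median difference of all named genes was -0.02 at 48 h and -0.12 at 72 h, and -0.01 at both times after quantile normalization. On the log2 scale the genes nearest the threshold were YPL199C (smaller difference 1.00, inside) and DSE4 (0.996, outside) among higher genes, and SSK2 (-1.002, inside) and ATG9 (-0.9997, outside) among lower genes.

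The calls depended on brightness. Among the 1373 genes in the dimmest 25% by mean level of the 3 arrays, 208 were higher and 17 lower, whereas among the 549 genes of the brightest 10% 4 were higher and 116 lower. After quantile normalization these counts were 65 and 27 in the dimmest 25% and 18 and 4 in the brightest 10%. Of the 345 higher genes, 127 had 24 h signals under the 5th percentile of that array, at which the share of background is unknown, and 218 had all 3 signals above it. Of the 318 lower genes, 302 did.

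The 24 h array also stood at an extreme for many called genes. Its level was the lowest of all 12 arrays in 292 of the 345 higher genes, or 84.6%, against 16.3% of all named genes. It was the highest of the 12 in 137 of the 318 lower genes, or 43.1%, against 11.0% of all named genes. All 137 lay outside the ribosomal protein genes. A called gene already has 24 h below, or above, both later arrays, which by itself raises these shares. All named genes are therefore not a matched base. Among all named genes, 24 h was the lowest of the 12 in 897, beside 1949 that lay above 24 h at both later times. It was the highest in 606, beside 2247 that lay below 24 h at both. Extremes of the 12 arrays, here and below, were counted in centred values and not recounted after quantile normalization. The standard deviation of levels was 1.47 at 24 h and 1.54 at 1 h. On the other arrays it lay between 0.66 (240 h) and 1.27 (168 h). A wider array sets bright genes further up and dim genes further down from its median, which can add extremes, and its share was not tested. How far these extremes reflect the 24 h array and how far the yeast at 24 h cannot be told apart with 1 array.

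**Figure D1:**
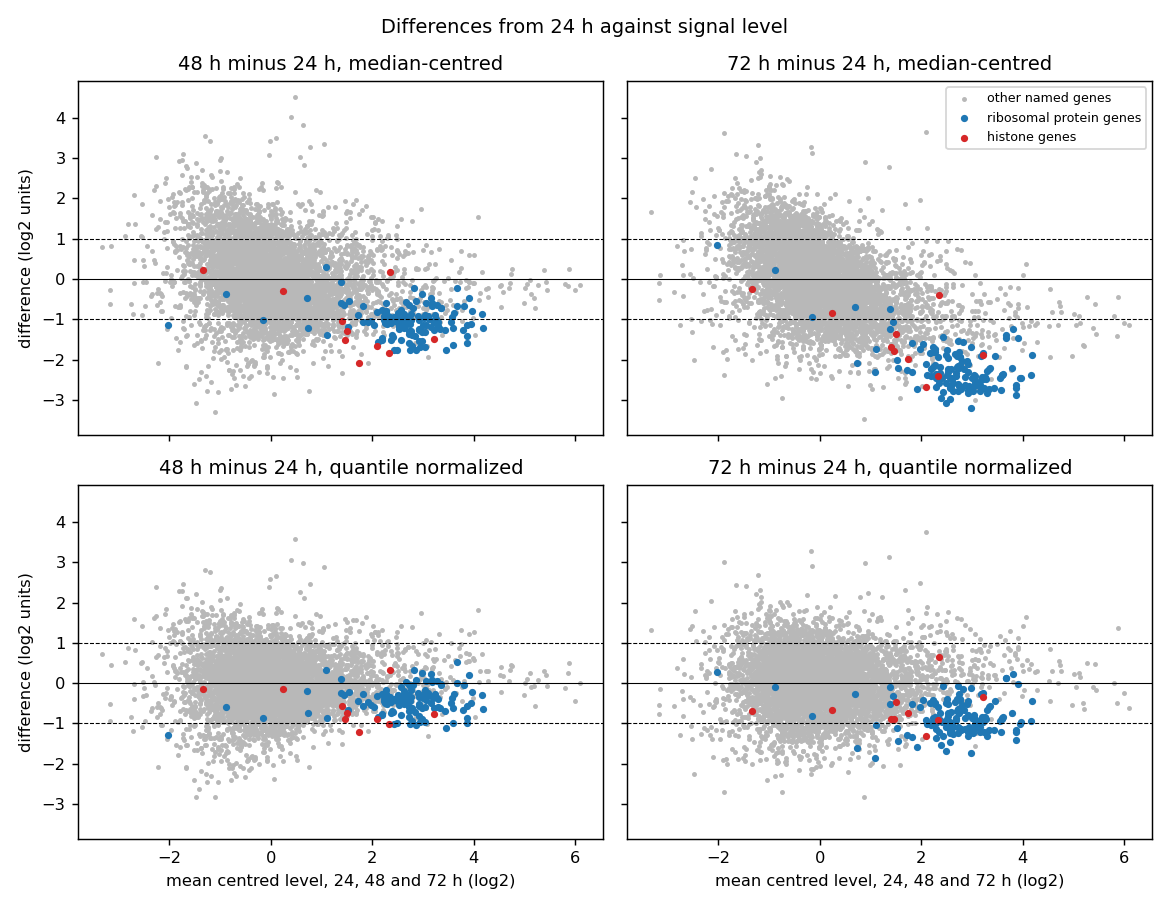
Difference from 24 h (vertical axis, log2 units) at 48 h (left) and 72 h (right) against the mean centred level of each named gene over the 3 arrays (horizontal axis, log2), after median centring (top) and quantile normalization (bottom); each point is a gene, and dashed lines mark 2-fold. In median-centred values the cloud slopes downward, and the ribosomal protein genes (blue) and histone genes (red) lie mostly below the bright genes around them in all 4 panels.

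Cytosolic ribosomal protein genes, which encode the structural proteins of the ribosome, were lower on both later days than on day 1, and lower on day 3 than on day 2. The 132 measured genes had a median level of 3.87 at 24 h (lowest -1.93, highest 5.31), 2.73 at 48 h (-3.07 to 4.38) and 1.54 at 72 h (-1.08 to 3.34). The ranges of the 3 arrays overlapped, since the genes of the list differ in level, so each gene was compared with its own 24 h level. Of the 132, 129 were below 24 h at both times, and the 3 arrays stood in the order 24, 48, 72 h from high to low in 128 (97.0%), against 25.5% of all named genes. Many of these genes come in pairs of similar sequence whose probes can share signal, so the 132 are not 132 separate measurements. A level at least 2-fold below 24 h was reached by 80 genes at 48 h, by 127 at 72 h and by 78 at both (59.1%, against 5.79% of all named genes). The median differences were -1.06 at 48 h and -2.35 at 72 h.

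These sizes were smaller on scales that equalize the spread of the arrays. After quantile normalization the ribosomal protein medians were -0.42 and -0.90, with 116 of 132 genes still below 24 h at both times, against 35.6% of all named genes. The order 24, 48, 72 h held for 98 genes (74.2%, against 19.8%), but 3 were 2-fold lower at both times. With arrays scaled to the same median absolute deviation, the median difference was 0.00 at 48 h and -1.02 at 72 h, so a lower level at 48 h was not seen in that scaling. The other genes of the brightest 10% had median differences nearer to 24 h, but they were not matched to the ribosomal protein genes in level. These 429 genes had median differences of -0.20 and -0.89, and of 0.08 and 0.20 after quantile normalization. Of them, 41 (9.56%) were 2-fold lower at both times. The 20 genes of glycolysis and ethanol formation, with a median 24 h level of 4.45, had centred medians of -0.54 and -1.40. Single genes of that list reached -1.39 at 48 h and -2.47 at 72 h. Whether brightness accounts for the ribosomal shift was not tested.

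Among single ribosomal protein genes, RPS18B, of the small subunit, had levels of 3.96 (24 h), 2.19 (48 h) and 1.14 (72 h), 3.41-fold and 7.05-fold lower than at 24 h. RPL34B, of the large subunit, stood at 4.23, 2.47 and 1.56. RPL9A, also of the large subunit, stood at 3.94, 2.18 and 1.35. RPS6B, of the small subunit, went from 5.30 to 3.70 and 2.60, 3.03-fold and 6.53-fold lower. In each of these 4 genes the 24 h array was the highest of the 3 and the 72 h array the lowest. After quantile normalization the differences of RPS18B were -1.01 and -1.33, those of RPL34B -1.01 and -1.11, those of RPL9A -1.001 and -1.08, and those of RPS6B -0.999 and -1.21. The 3 genes not lower at both times, singled out after their values were seen, were RPL31B, RPS19A and RPS7A. RPS7A had levels of 1.76, 2.05 and -0.55, above 24 h on day 2 and below it on day 3. RPL31B and RPS19A were dim, with levels of -1.93 and -0.82 at 24 h.

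Over the whole course the median level of the ribosomal protein genes was 0.53 at 0 h and 5.08 at 1 h, so 24 h was the second highest array for the group and no member had its highest level there. From 96 h on, the group median lay between -0.03 (240 h) and 1.06 (168 h). The 48 and 72 h arrays thus lay between the high levels at 1 and 24 h and the later arrays.

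**Figure D2:**
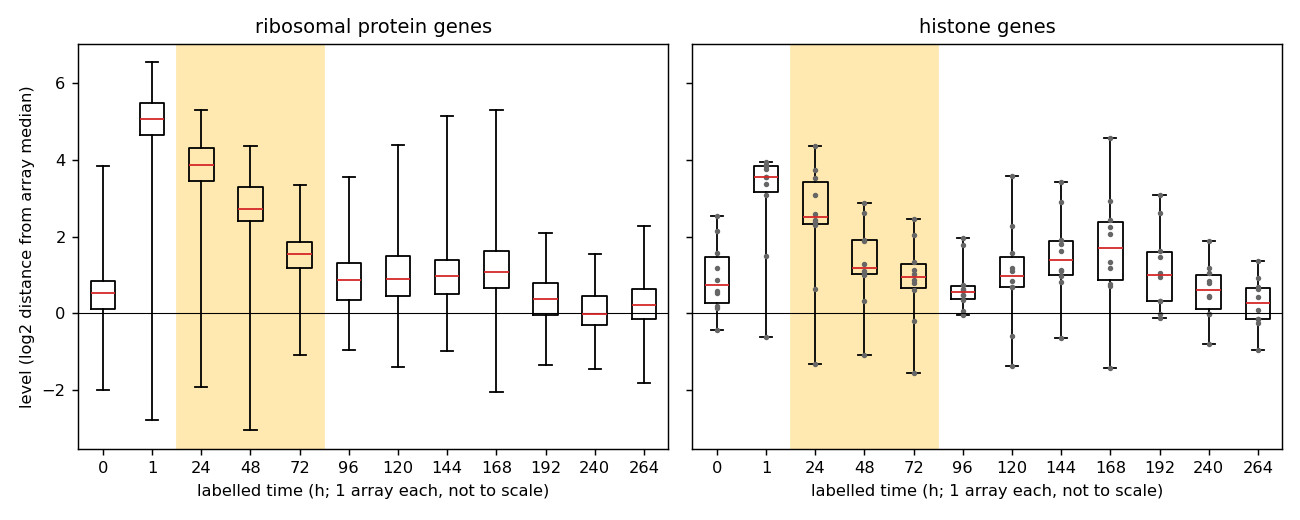
Level (log2 distance from the array median) of 132 cytosolic ribosomal protein genes (left) and 10 histone genes (right) on each of the 12 arrays, with the 24, 48 and 72 h arrays shaded; boxes give quartiles with the median in red, whiskers the lowest and highest gene, and dots on the right single genes. The ribosomal median steps from 3.87 to 2.73 and 1.54 over the shaded arrays, and the histone median from 2.50 to 1.18 and 0.94.

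Other lists of the machinery for making protein also had medians below 24 h. RNA polymerase I and III subunits, which transcribe ribosomal and transfer RNA, had median differences of -0.65 and -0.61 over 22 genes, and of -0.48 and -0.39 after quantile normalization, with 3 genes 2-fold lower at both times (13.6%, against 5.79% of all named genes) and 0 higher. After quantile normalization 0 of the 22 passed 2-fold, and their 48 h median, -0.48, was further from 24 h than that of the ribosomal protein genes, -0.42. RPA135, the second largest subunit of polymerase I, stood at 0.52, -0.67 and -0.52, RPA34 of the same enzyme at 1.41, -0.21 and 0.08, and RPC25 of polymerase III at 2.77, 1.63 and 1.23. Ribosome biogenesis factors, which assemble ribosomal subunits in the nucleus, had medians of -0.34 and -0.48 over 96 genes (-0.20 and -0.18 after quantile normalization), with 4 lower and 1 higher, or 4.17% and 1.04%, both below the shares of all named genes, and with 0 either way after quantile normalization. NMD3, the export adapter of the large subunit, stood at 2.43, 1.10 and 0.81, and NOP1, the nucleolar RNA methyltransferase, at 3.27, 2.10 and 1.88. ARX1 and UTP14 were the other 2 lower genes and MAK16 the 1 higher gene. Both lists lay below 24 h at both times in all 5 scalings tried (median centring, quantile normalization over 12 or 3 arrays, cyclic loess and equal median absolute deviations).

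Translation factors had medians of -0.21 and -0.69 over 36 genes, but of -0.07 and -0.09 after quantile normalization, and of 0.13 at 48 h with equal median absolute deviations. The 3 that were 2-fold lower (8.33%, against 5.79%, and 0 after quantile normalization) were EFB1, the exchange factor of elongation factor 1 (2.38, 1.32 and -1.09), EFT2, elongation factor 2 (3.24, 2.07 and 1.35), and PRT1, of initiation factor 3 (2.05, 0.68 and 0.33). EFT2 has a near-identical copy whose signal its probe can share. Aminoacyl-tRNA synthetases, which charge transfer RNA with amino acids, had medians of -0.24 and -0.37 over 18 genes (-0.16 and -0.19 after quantile normalization). FRS2, GRS1 and TYS1, the enzymes or subunits for phenylalanine, glycine and tyrosine, were 2-fold lower (16.7%, against 5.79%), and 1 of the 18 genes was after quantile normalization. Mitochondrial ribosomal protein genes, 69 in number, lay close to all genes, at -0.03 and -0.13, with 2 higher (2.90%, against 6.28%) and 0 lower.

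Histone genes were the other list in which more than 25% of members were called. Histones package DNA, and their genes are transcribed mainly while DNA is copied. Of 10 measured genes, 7 were 2-fold lower at both times, against 5.79% of all named genes, and 0 were higher. The list median was 2.50 on day 1, 1.18 on day 2 and 0.94 on day 3, with median differences of -1.39 and -1.75. After quantile normalization the medians were -0.76 and -0.71, with 9 of 10 genes below 24 h at both times and 0 past 2-fold, and over the 5 scalings the median stayed below 24 h at both times.

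HTA1, a histone H2A gene, had levels of 3.75 (24 h), 1.91 (48 h) and 1.33 (72 h), 3.56-fold and 5.33-fold lower. HTB1, a histone H2B gene, stood at 3.10, 1.00 and 1.12, 4.28-fold and 3.93-fold lower. HHF1 and HHF2, both histone H4 genes, stood at 3.54, 1.88 and 0.86 and at 2.58, 1.05 and 0.78. In these 4 genes 24 h was above both later arrays by more than 1.5 log2 units. HTA2, HTB2 and HHT1 were the other 3 lower genes. Paired copies of histone genes are similar in sequence, and their probes can share signal. The pair of histone H3 genes differed from each other. HHT1 had differences of -1.49 and -1.89, and HHT2 of 0.18 and -0.39. The linker histone HHO1 (-0.31 and -0.84) and the H2A variant HTZ1 (0.23 and -0.24) were not called. At 1 h the histone median was 3.55, above 24 h, and from 96 h on it lay between 0.25 and 1.70.

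The list of DNA copying genes had medians on the other side in centred values. The 47 replication genes had medians of 0.17 and 0.33 (-0.02 and 0.15 after quantile normalization), with 4 lower and 3 higher. These were 8.51% and 6.38%, near the 5.79% and 6.28% of all named genes, and after quantile normalization 1 was lower and 0 higher. POL30, the sliding clamp, stood at 1.03, -1.14 and -0.13, and RFC5, of the clamp loader, at 0.70, -0.68 and -1.24. POL3, a polymerase, and ORC1, of the origin recognition complex, were the other 2 lower genes, and MCM5, ORC2 and POL32 the 3 higher. Of 24 cyclin and mitotic regulator genes, 0 were called in either direction (against 6.28% higher and 5.79% lower of all named genes), with medians of -0.07 and -0.16.

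Genes of sugar breakdown were bright, and their direction depended on the scaling. For the 20 genes of glycolysis and of ethanol formation the median level was 4.45 on day 1, 3.56 on day 2 and 2.65 on day 3, and median differences of -0.54 and -1.40. After quantile normalization these were -0.13 and -0.21, after loess -0.02 and 0.13, and with equal median absolute deviations 0.73 and 0.41, so no direction held. TPI1, triose phosphate isomerase, stood at 4.67, 3.28 and 2.20, and GPM1, phosphoglycerate mutase, at 4.86, 3.83 and 2.59. They were the 2 of the list past 2-fold at both times (10%, against 5.79%), and after quantile normalization differed by -0.76 and -0.90 and by -0.45 and -0.76. PDC1, pyruvate decarboxylase, stood at 4.41, 3.64 and 3.26, and ADH1, the main alcohol dehydrogenase of fermentation, at 4.23, 3.47 and 2.71. Both had differences between -0.10 and 0.38 after quantile normalization, and at 72 h both lay above 24 h on that scale and below it in centred values. ADH4, a dehydrogenase isoenzyme, stood at 4.48, 3.26 and 1.47, with differences of -0.61 and -1.56 after quantile normalization.

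The maltose genes had medians of -0.70 and -0.93 over 9 genes, and of -0.05 and -0.20 after quantile normalization (0.35 at 48 h with equal median absolute deviations). MAL11, a maltose permease gene, stood at 2.50, 1.34 and 0.48, and MPH2, another alpha-glucoside permease gene, at 1.82, 0.76 and 0.70. MAL32, maltase, stood at 5.42, 4.71 and 3.48, and its 24 h level was the highest of the 12 arrays. With equal median absolute deviations MAL32 lay above 24 h, by 0.84 and 0.24. Of the 9 genes, 2 were lower in centred values (22.2%, against 5.79% of all named genes) and 0 after quantile normalization (against 1.18%). Hexose transporter genes had medians of -0.15 and 0.01 over 20 genes, with 0 lower and 1 higher (5%, against 6.28% of all named genes). That gene was HXT13, a minor family member, which stood at -1.37, 0.33 and 0.35. HXT1, the low-affinity glucose transporter, stood at 1.38, 1.55 and 0.96, and HXT3, another, at -0.53, 0.38 and 0.10, where its levels at 0 h (2.76) and 168 h (3.63) were higher than on any of these 3 arrays. Members of both families are similar in sequence, and their probes can share signal.

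Sterol synthesis genes were bright on all 3 days, with a median level of 4.13 on day 1, 3.68 on day 2 and 3.16 on day 3 over 25 genes. The median differences were -0.21 and -0.82 in centred values but 0.24 and 0.32 after quantile normalization, and 1.10 and 0.98 with equal median absolute deviations, so no direction held. Of the 25, 0 passed 2-fold at both times in either direction in centred values, against 6.28% higher and 5.79% lower of all named genes. After quantile normalization 1 was higher and 0 lower. ERG11, the lanosterol demethylase, stood at 6.14, 6.02 and 5.24, with differences of -0.11 and 0.00 after quantile normalization and 1.93 at 72 h with equal median absolute deviations. OLE1, the oxygen-dependent fatty acid desaturase, stood at 5.94, 6.18 and 5.51. The hypoxic list, which overlaps the sterol list (both hold ERG11), also changed side at 72 h. Its medians were 0.01 and -0.54 in centred values and 0.29 and 0.42 after quantile normalization. DAN4, a cell wall mannoprotein gene of anaerobic growth, was its 1 called gene and was higher (-1.90, -0.28 and -0.87), or 4.55% against 6.28%.

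The seripauperin genes, a large family of near-identical cell wall genes induced without oxygen, had medians above 24 h at both times in all 5 scalings. Their medians were 0.36 and 0.06 in centred values, 0.43 and 0.84 after quantile normalization and 0.63 and 1.21 after loess. After quantile normalization 17 of the 23 lay above 24 h at both times (73.9%, against 34.6% of all named genes) and 0 below, and in centred values 12 above and 6 below. PAU7 was the 1 member past 2-fold in centred values (4.35%, against 6.28% of all named genes), at -1.05, 0.53 and 0.49. These probes share signal, so the 23 are not 23 separate measurements.

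Lists of genes for using carbon other than sugar held at most 3 called genes each, with shares on either side of those of all named genes. In the citric acid cycle list, given below, 0 of 22 were higher and 1 lower, with medians of 0.04 and -0.42. In the glyoxylate cycle and gluconeogenesis list, 3 of 17 genes were 2-fold higher at both times (17.6%, against 6.28%) and 0 lower, with medians of 0.48 and 0.24 (0.24 and 0.49 after quantile normalization, with 2 of the 17 higher). The medians of this list lay above 24 h at both times in all 5 scalings. JEN1, the lactate and pyruvate permease, whose gene is repressed by glucose, stood at 0.01, 1.61 and 1.45, and was at 3.18 at 120 h. CAT8 and SIP4, activators of gluconeogenic genes, stood at -2.26, -0.12 and -0.49 and at -1.27, -0.05 and 0.07, the first with a 24 h signal below the 5th percentile of the array. In the peroxisome and fatty acid oxidation list 3 of 30 were higher (10%, against 6.28%) and 0 lower, namely CRC1, the mitochondrial carnitine carrier, PEX17, of peroxisomal protein import, and POX1, the acyl-CoA oxidase. POX1 stood at -0.91, 0.19 and 0.16. After quantile normalization 1 of the 30 was higher. The list medians were 0.08 and 0.20, against -0.02 and -0.12 for all named genes, and 0.05 and 0.21 after quantile normalization. They stayed above 24 h at both times in all 5 scalings. Respiratory chain genes had medians of 0.48 and -0.16 over 36 genes, and of 0.52 and 0.38 after quantile normalization, so the direction at 72 h changed with the scaling. NDE1, the external NADH dehydrogenase, was the 1 called, and it was higher (2.78%, against 6.28%).

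In phospholipid synthesis, INO1, which makes the precursor of inositol, was among the genes furthest above 24 h. It had levels of -0.82 (24 h), 1.40 (48 h) and 2.08 (72 h), 4.65-fold and 7.48-fold higher, and at 1.72 and 2.98 above 24 h after quantile normalization. The 24 h level was the lowest of the 12 arrays, with 3.08 at 0 h, -0.38 at 1 h and 3.61 at 168 h. CHO1, the phosphatidylserine synthase, stood at -1.01, 1.25 and 0.08. PCT1, of the choline branch, was lower, at 2.04, 0.92 and 0.75. The whole fatty acid and phospholipid list had medians of -0.01 and 0.09 over 29 genes. Of these, 2 were higher and 1 lower (6.90% and 3.45%, against 6.28% and 5.79% of all named genes). After quantile normalization 1 was higher and 0 lower.

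In the nitrogen-repressed list 4 of 33 were higher (12.1%, against 6.28%) and 1 lower (3.03%, against 5.79%), with medians of 0.44 and 0.02. After quantile normalization 1 was higher and 0 lower. CAN1, the arginine permease, stood at -0.99, 0.91 and 0.44. CAR2, of arginine breakdown, stood at -0.48, 0.72 and 1.03, and PUT3, the activator of proline use, at -1.11, 0.01 and 0.03. ASP3-4, the fourth called gene, had a 24 h signal below the 5th percentile, and DAL2, allantoicase, was lower (1.23, 0.09 and -0.38). GAP1, the general amino acid permease, stood at -0.47, 0.34 and 0.25 without reaching 2-fold. TAT1, a permease for valine, leucine, isoleucine and tyrosine, stood at -2.01, 0.28 and -0.46. In the list of amino acid and peptide permeases 2 of 20 were higher (10%, against 6.28%) and 0 lower, and 1 was higher after quantile normalization.

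Amino acid and nucleotide synthesis genes were mixed. Branched-chain genes had medians of 0.45 and -0.04 over 12 genes (0.52 and 0.75 after quantile normalization). Of the 12, 1 was higher and 1 lower (8.33% each, against 6.28% and 5.79% of all named genes). After quantile normalization 1 was higher and 0 lower. ILV2, the acetolactate synthase that leads to the diacetyl precursor, was lower, at 2.63, 0.94 and 1.30, while LEU3, the activator of the leucine pathway, was higher, at -1.92, -0.73 and -0.58. In sulfur assimilation and methionine synthesis, MET5, of sulfite reductase, stood at 2.59, 1.29 and 0.84, and HOM6, homoserine dehydrogenase, at 1.91, 0.63 and 0.24. MET6, the methionine synthase, stood at 4.45, 4.63 and 3.41, and its 72 h difference was -1.04 in centred values and 0.48 after quantile normalization. Of the 35 genes of the list, 1 was higher and 2 lower (2.86% and 5.71%, against 6.28% and 5.79% of all named genes). After quantile normalization 2 were higher and 0 lower, against 2.40% and 1.18% of all named genes. The list medians were -0.04 and -0.29 in centred values. STR3, the third gene called in the list and higher, had a 24 h signal below the 5th percentile. Of 30 purine and pyrimidine genes, 2 were lower (6.67%, against 5.79%) and 0 higher, and after quantile normalization 0 were called. They were IMD3 and IMD4, near-identical genes of guanine nucleotide synthesis, with IMD4 at 4.07, 2.48 and 1.97.

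**Figure D3:**
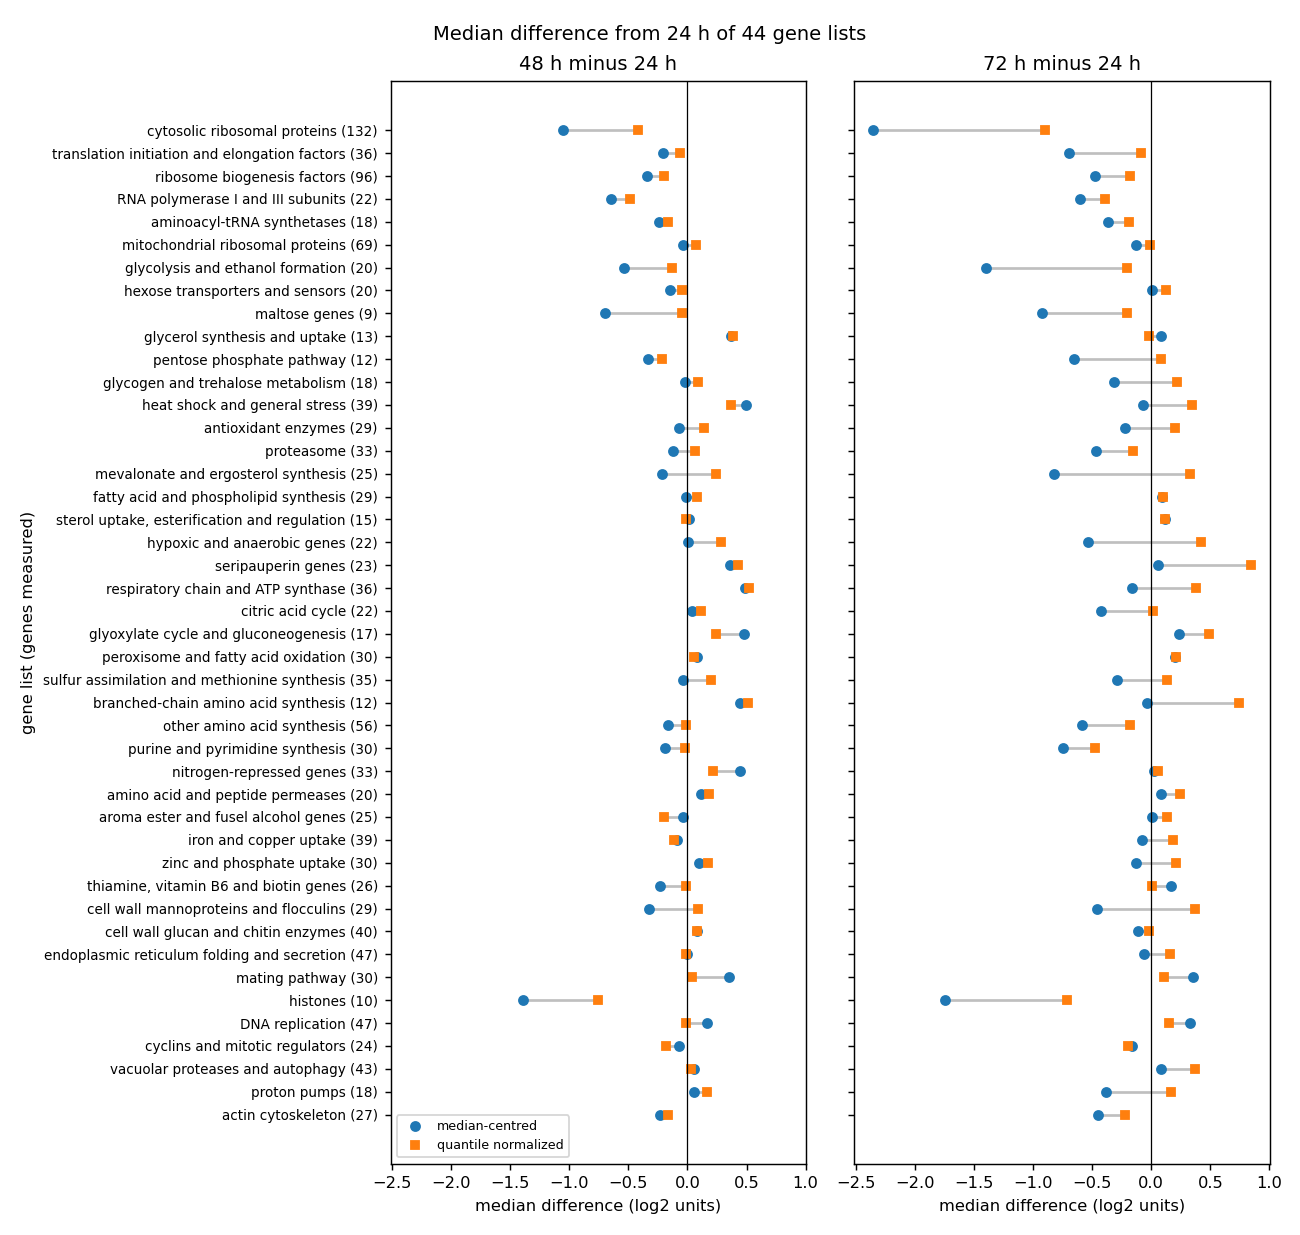
Median difference from 24 h (log2 units) of 44 gene lists at 48 h (left) and 72 h (right), with median-centred values as blue circles, quantile normalized values as orange squares and the number of genes measured in brackets. Ribosomal protein and histone lists lie furthest to the left in centred values at both times and in quantile normalized values at 72 h (at 48 h the RNA polymerase list, at -0.48, lies left of the ribosomal list, at -0.42), while the sterol, hypoxic and cell wall mannoprotein lists change side at 72 h.

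Stress and surface genes gave calls in both directions. In the heat shock and general stress list 4 of 39 were higher (10.3%, against 6.28% of all named genes) and 1 lower (2.56%, against 5.79%). After quantile normalization 2 were higher and 0 lower. The list medians were 0.49 and -0.07 in centred values and 0.37 and 0.35 after quantile normalization. On the latter scale 24 of 39 lay above 24 h at both times (61.5%, against 34.6% of all named genes) and 8 below. In centred values 16 lay above and 13 below. DDR2, a stress-induced gene, stood at -0.13, 1.20 and 1.10, and at 3.70 at 168 h. HSF1, the heat shock factor, stood at -1.43, -0.02 and -0.24, SPG4, a stationary phase gene, at -1.95, -0.57 and -0.41, and XBP1, a stress-induced repressor, at -2.08, 0.15 and -0.21 with a 24 h signal below the 5th percentile. HSP104, the disaggregase, was lower, at 1.44, 0.43 and -0.18. HSP26, a small heat shock protein, stood at 1.70, 1.32 and 1.55. Of 33 proteasome and 18 proton pump genes 0 were called, against 6.28% higher and 5.79% lower of all named genes. PMA1, the plasma membrane proton pump, stood at 0.78, 1.09 and 0.14.

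Of 29 cell wall mannoprotein and flocculin genes 1 was higher and 2 lower, or 3.45% and 6.90% against 6.28% and 5.79% of all named genes. After quantile normalization 2 were higher and 2 lower. CWP1, a mannoprotein, was higher, at -0.05, 1.20 and 1.48, and CRH1, a chitin transglycosylase, lower, at 1.23, -0.28 and -0.24. FLO5, a flocculin gene, stood at 4.09, 2.84 and 1.95, and FLO1, its relative, at 0.87, 1.66 and 1.57. FLO5 had differences of -0.52 and -0.53 after quantile normalization, and FLO1 of 0.72 and 1.19. These flocculin genes are similar in sequence. ATF1, the alcohol acetyltransferase that makes acetate esters, stood at 1.45, 0.51 and 0.39, with its highest level of the 12 arrays at 24 h.

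Of 30 zinc and phosphate genes 2 were higher (6.67%, against 6.28%) and 4 lower (13.3%, against 5.79%), with medians of 0.10 and -0.13. After quantile normalization 0 were higher and 1 lower. The 4 included the acid phosphatase genes PHO3, PHO5 and PHO12. PHO5 stood at 1.19, 0.03 and -0.97, PHO3 at 1.54, 0.23 and 0.11, and PHO12 at 2.06, 0.93 and 0.35. All 3 had their highest level of the 12 arrays at 24 h, and their sequences are similar. VTC4, the vacuolar polyphosphate polymerase, was higher, at -1.67, -0.44 and -0.31, and so was ZRT2, a zinc transporter, at -0.88, 0.35 and 0.48. ZAP1, the activator of zinc uptake genes, was lower, at 0.77, -2.03 and -1.84, with signals below the 5th percentile of at least 1 later array. Of 39 iron and copper genes 2 were lower (5.13%, against 5.79%) and 0 higher (against 6.28%), both below the shares of all named genes. The list medians were -0.09 and -0.07, and after quantile normalization 0 were called. CTR3, a copper transporter, stood at 2.58, 0.65 and 0.96, and FIT1, a cell wall mannoprotein of siderophore iron uptake, at 2.40, 0.24 and 0.73. The called genes of each list above were named after their values were seen.

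In the mating pathway, 3 of 30 genes were higher (10%, against 6.28% of all named genes) and 4 lower (13.3%, against 5.79%), with medians of 0.35 and 0.36. After quantile normalization 0 were higher and 1 lower, and the medians were 0.04 and 0.11. STE12, the transcription factor of the pathway, stood at 1.66, 0.57 and 0.00, and STE20, a kinase of it, at 2.34, 1.14 and 0.56. In centred values FUS1 and STE18 were the other 2 lower genes, and SST2, STE2 and STE6 the higher ones, each with a 24 h level under -1.9. In vacuolar proteases and autophagy, ATG17 was higher and ATG10 lower of 43 (2.33% each, against 6.28% and 5.79%), with medians of 0.05 and 0.08.

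Among other amino acid synthesis genes 2 of 56 were higher (3.57%, against 6.28%) and 3 lower (5.36%, against 5.79%), with medians of -0.17 and -0.58. After quantile normalization 1 was higher and 1 lower. HIS1, the first enzyme of histidine synthesis, stood at 1.90, 0.38 and 0.24, and ARG7, of arginine synthesis, at -0.65, 0.80 and 0.68. SER2 and HIS7 were lower too, and HIS2 higher. PDX1, of the pyruvate dehydrogenase complex, was the 1 gene called of 22 in the citric acid cycle list (3.40, 2.25 and 1.06), or 4.55% lower against 5.79%. ARE1, a sterol acyltransferase, was the 1 called of 15 in sterol uptake and esterification (1.64, 0.39 and 0.63), or 6.67% lower against 5.79%.

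Between 1 and 3 genes were called in centred values in each of 8 further lists, counts too small to read as results about a list. Their shares stand beside 6.28% higher and 5.79% lower of all named genes. GUP2 was higher of 13 glycerol genes (7.69%), and TKL2 lower of 12 pentose phosphate genes (8.33%). PIG1 was higher of 18 glycogen and trehalose genes (5.56%), from a 24 h level of -3.17, with a signal below the 5th percentile of that array. TRR2 was higher and DOT5 lower of 29 antioxidant genes (3.45% each). In the thiamine, vitamin B6 and biotin list SNZ3 was higher and THI22 lower of 26 (3.85% each), and in the aroma list AAD10 and ADH4 were lower of 25 (8%). GAS4, NCA3 and SCW11 were higher of 40 glucan and chitin enzymes (7.5%), and SIL1 was lower of 47 genes of the endoplasmic reticulum (2.13%). After quantile normalization 2 antioxidant genes were higher. In each of the glycogen, vitamin, aroma and glucan lists 1 gene was higher on that scale, and 0 were called otherwise.

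The 15 genes furthest above 24 h in both normalizations, among genes with signals above the 5th percentile on all 3 arrays, came from several of the lists above or from none. OPT1, an oligopeptide and glutathione transporter, had levels of -1.07 (24 h), 1.95 (48 h) and 0.85 (72 h), 8.15-fold and 3.81-fold higher. SNZ3, of the vitamin B6 gene family, stood at -0.81, 2.47 and 0.64, 9.74-fold and 2.73-fold higher, and its probe can share signal with near-identical family members. RPI1, a regulator that acts against the Ras pathway, stood at 0.42, 2.38 and 2.27, and reached 5.10 at 168 h. DOT6, a repressor of ribosome biogenesis genes, stood at -1.60, 0.26 and 0.52, 3.63-fold and 4.32-fold higher. For OPT1, SNZ3 and DOT6 the 24 h level was the lowest of the 12 arrays, and for RPI1 the level at 1 h (0.21) was lower still.

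FAT3, a gene of fatty acid uptake, stood at -0.25, 1.34 and 1.78, YOP1, a membrane-shaping protein of the endoplasmic reticulum, at 1.20, 2.69 and 2.46, and SFH5, a phosphatidylinositol transfer protein, at -1.23, 0.48 and 0.38. REC107, a meiotic recombination gene, stood at -1.91, 0.22 and 0.03, and SET4, a SET domain protein, at -1.47, 0.39 and 0.22. On the other 9 arrays REC107 lay between -0.46 and 0.87 and SET4 between -1.28 and 0.02. DIA1, YMR181C and YOL036W completed the group beside INO1, JEN1 and HXT13, with DIA1 at 0.78, 2.39 and 2.04. In 11 of the 15 genes the 24 h array was the lowest of the 12. The smallest of the 4 differences (both times, both normalizations) was 1.26 for the last gene in the group and 1.24 for the next one outside it.

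The 15 genes furthest below 24 h in both normalizations were not ribosomal protein or histone genes. NSP1, a nuclear pore protein, had levels of 1.89 (24 h), -0.57 (48 h) and -0.58 (72 h), 5.51-fold and 5.54-fold lower. PET130, needed for respiratory growth, stood at 1.54, -0.80 and -0.94, 5.07-fold and 5.56-fold lower. BOP2, of unknown function, stood at 2.45, -0.33 and 0.13, 6.86-fold and 4.97-fold lower. AGE2, a regulator of vesicle transport, stood at 2.61, 0.64 and -0.14. In these 4 genes 24 h was the highest of the 12 arrays, and the next highest level was 0.59 for NSP1 and 1.19 for PET130.

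NMD2, of nonsense-mediated mRNA decay, stood at 1.77, -0.09 and -0.11, and SIZ1, a SUMO ligase, at 1.74, -0.09 and -0.14. BTS1, which makes the geranylgeranyl lipid, stood at 0.57, -0.998 and -0.86, and BET4, of the enzyme that attaches this lipid to proteins, at 1.56, -0.14 and -0.22. PET54 and RMD9, both of mitochondrial gene expression, stood at 0.93, -0.72 and -0.63 and at 0.55, -0.90 and -0.88. CDC36, of the CCR4-NOT complex, stood at 0.67, -0.79 and -0.86. TMA64, HLR1, RFC5 and FRS2 completed the group. In 11 of the 15 the 24 h level was the highest of the 12 arrays. The smallest difference in size was -1.14 for the last gene in the group and -1.13 for the next outside it.

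**Figure D4:**
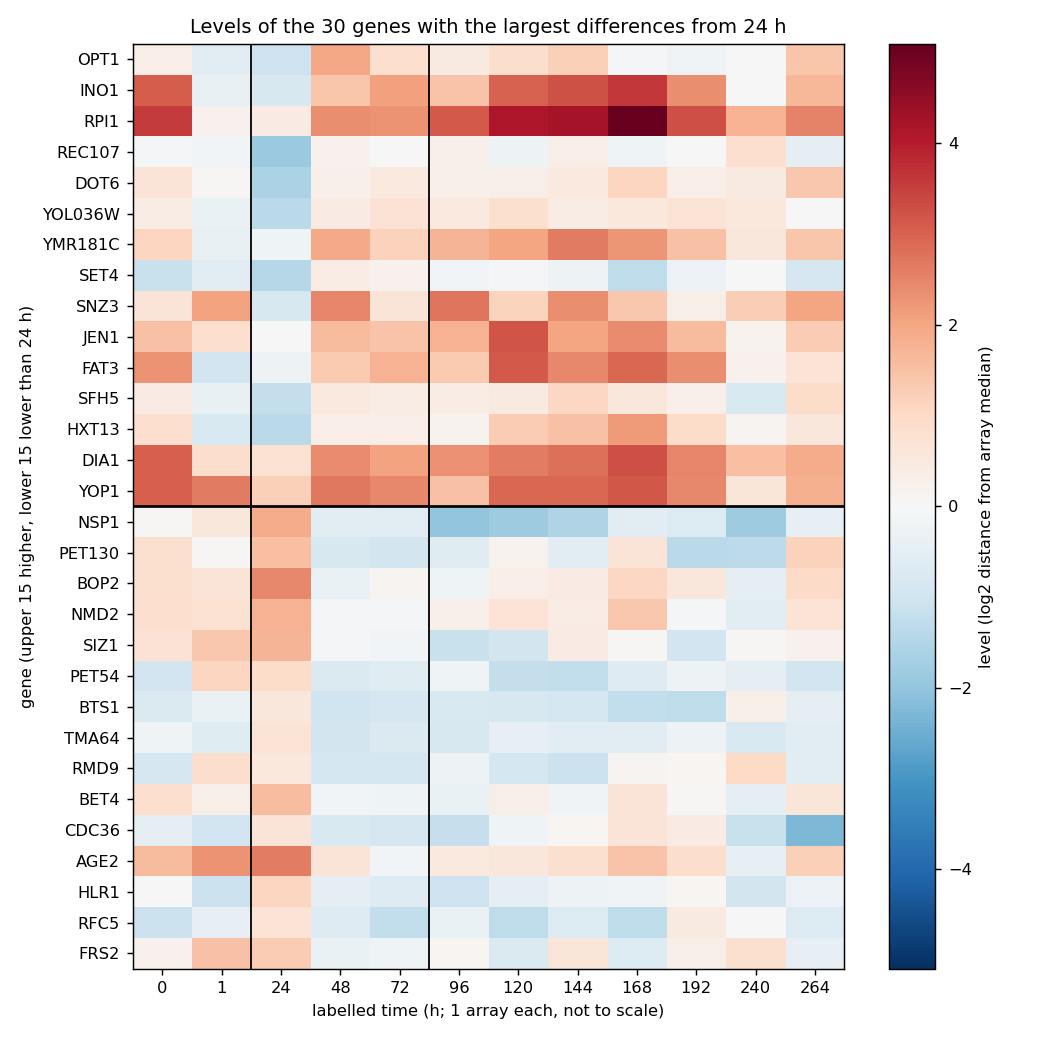
Level (colour, log2 distance from the array median) of the 15 genes furthest above 24 h (above the thick line) and the 15 furthest below it (below the line), on each of the 12 arrays in order of labelled time; the thin lines enclose the 24, 48 and 72 h arrays. Many of the lower genes, such as NSP1 (1.89) and BOP2 (2.45), are at their highest at 24 h, and several higher genes, such as INO1 and RPI1, are also high at 0 h and from 120 to 168 h.

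ACT1, the actin gene often used as a reference, had levels of 3.69 (24 h), 2.83 (48 h) and 1.91 (72 h), 1.81-fold and 3.43-fold lower. After quantile normalization its differences were -0.17 and -0.22. The centred difference of ACT1 was nearer to 0 than the ribosomal protein median at both times, -0.85 against -1.06 and -1.78 against -2.35. Of the 27 actin cytoskeleton genes, 3 were lower (ABP1, CAP2 and SAC6, 11.1% against 5.79%) and 1 higher (BNR1), and after quantile normalization 0 were called.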

How the data were processed

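Total RNA of 12 fermentation samples was measured on 1 array each. The deposited values were linear intensities, whole numbers for 6084 probes. Scanner, background correction and scaling are not given in the sources used here, and no detection calls came with the values. Probes were named through the platform annotation: 5523 had 1 symbol, 561 none and 0 several, and log2 values were averaged over the probes of the 32 symbols that had more than 1. Intensities were log2 transformed and centred on each array's median over rows measured on all arrays. The 3 intensities of 0 in the series, none of them on the 24, 48 or 72 h arrays, were treated as missing. Quantile normalization over 12 arrays used limma 3.58.1 in R 4.3.3, as did cyclic loess. Counts and medians were made in Python 3.11.15 with pandas 2.3.3, and figures with matplotlib 3.10.9. The counting was checked on simulated arrays.

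Samples were grouped by labelled time. Genes were called where both later arrays differed from 24 h by at least 2-fold in the same direction. With 1 array per time no p-value was computed, and the number of arrays limits the precision. Named genes were the 15 largest each way by the smallest of 4 differences (both times, both normalizations), with all 3 signals above the 5th percentile and a level above the median on the brighter side. To these came the 4 leading members of each list with at least 25% of members called and 15 fixed genes. The 44 lists and these rules were chosen with earlier results of these data known. List members whose symbol is not in the annotation were not used. Promoter sequences were not analysed here, and no genome was used.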

Additional observations from a re-analysis of the deposited data

How the results depend on the processing

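The counts of called genes depended on the scaling. Against 345 higher and 318 lower genes, quantile normalization over 12 arrays gave 132 and 65, over the 3 arrays 199 and 121, equal median absolute deviations 203 and 111, and values as deposited without centring 77 and 1085. Higher calls were 52.0% of all calls after centring, 67.0% and 62.2% after the quantile normalizations, 62.8% after loess, 64.6% with equal deviations and 6.6% without centring. Cyclic loess gave 231 higher and 137 lower, and a floor at the 5th percentile 279 and 316. Leaving out the dimmest 25% of genes gave 137 higher and 301 lower, and the brightest probe of each symbol 346 and 316. A threshold of 1.5-fold gave 848 and 900, and 4-fold 27 and 6. The 48 h array alone gave 732 higher and 635 lower, and the 72 h array alone 707 and 939. The median of the ribosomal protein genes at 48 h changed sign with equal median absolute deviations (0.0022 against -1.06), which rescales each array. Signs also changed for other lists and genes. Of 616 recomputed list medians, 131 had the opposite sign to the centred value, among them glycolysis at 72 h (-1.40, and 0.41 with equal median absolute deviations) and sterol synthesis at 72 h (-0.82 and 0.98). Of 728 recomputed differences of named genes 35 did, all of them in genes not called in centred values, such as MET6, PDC1, ADH1, MAL32 and ERG11. In 12 of the 44 lists the median kept the same sign at both times in all 5 scalings. No paired analysis was possible because each time had 1 array. Background signal is unknown, so differences of dim genes are uncertain.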
